A study of Mus musculus with 4 samples.

Results

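The D-type cyclins, CDK inhibitors of the CIP/KIP and INK4 families and the retinoblastoma gene were followed in Fgf10-positive cells, sorted from submandibular glands of adult mice and of pups. The 10 genes were taken by symbol and had each a single Ensembl gene among the 53465 counted: the cyclin genes Ccnd1, Ccnd2 and Ccnd3, the CIP/KIP genes Cdkn1a and Cdkn1b, the INK4 genes Cdkn2a, Cdkn2b, Cdkn2c and Cdkn2d, and Rb1. Of these, 9 passed the filter on low counts and were tested, and Cdkn2a did not.

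All mice were C57BL/6J with the genotype Fgf10CreERT2:Rosa26Tomato fl/fl, in which tamoxifen activates Cre in cells that express Fgf10 and so switches on a red fluorescent reporter. The adult glands came from postnatal day 60, with tamoxifen given on days 57 and 58. The pup glands came from postnatal day 7, with tamoxifen given on days 4 and 5, and the dose was 0.1 mg per g in both ages. Every animal, pup or adult, thus carried the Fgf10 Cre allele and received tamoxifen. There were 2 libraries per age, and the labels do not say how many animals stand behind a library, so p-values measure the spread between these libraries, which may be technical.

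D cyclins bind CDK4 and CDK6, and the kinase so formed phosphorylates the retinoblastoma protein, which then releases E2F transcription factors that switch on genes of DNA replication. The INK4 proteins bind CDK4 and CDK6 and keep them from the D cyclins, while the CIP/KIP proteins act on CDK2 complexes and can also help cyclin D and CDK4 to assemble. Salivary gland cells divide in the first weeks after birth and far less in the adult, and the comparison of ages asks how the genes of this switch were set in the labelled cells.

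Gene counts per library ranged from 7289792 to 21490686. Pup replicate 1 stood apart: 76.7% of its reads were assigned to no counted feature, against 9.7% to 10.6% in the others. Of 1134 olfactory receptor genes, 96.5% had a count there, against 1.59% to 7.67% in the others. The background count expected in pup replicate 1, from the rate over olfactory receptor genes, is therefore given beside many of the named genes. It is not repeated below for Rbl2 (23.0% of the counts), Top2a (21.7%), Foxo3 (20.7%), Tfdp2 (20.4%), Cdk2 (18.3%), Tfdp1 (15.6%) and Cdk7 (15.2%). Fgf10 itself stood at 195 and 40.3 CPM (counts scaled to the library's total with TMM factors) in the adults and at 27.3 and 24.1 CPM in pup libraries, with 64.4 of the 252 counts of pup replicate 1 expected from background. Marker genes showed that the libraries differed in makeup within an age. The 5 ionocyte markers summed to 2997 and 1682 CPM in adult replicates 1 and 2 and to 33.2 and 35.2 CPM in pup replicates 1 and 2, where background was expected to give 251 of the 307 counts of pup replicate 1. For the 8 mesenchyme markers the sums were 1256 and 22439 CPM in adult libraries against 26104 and 59715 CPM in pup libraries. The 5 endothelial markers summed to 0.0766 and 749 CPM in adult libraries, with Cdh5, Kdr, Tek and Emcn at 0 counts in adult replicate 1, and to 107 and 6.25 CPM in pup libraries, with 414 of the 991 counts of pup replicate 1 expected from background. In bulk RNA, fewer cells of a type and less RNA per cell cannot be told apart.

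The promoter stretches of 3 inhibitor genes are shown because these genes behaved differently across the libraries: Cdkn1a differed 6.54-fold between the adults, Cdkn1b stayed between 27.8 and 48.4 CPM, and Cdkn2b was highest in a single adult library. The sequences are from RefSeq for GRCm38.p6, on the plus strand for the first 2 and the minus strand for Cdkn2b, read 5′ to 3′ up to the first annotated exon base. Capitals mark the p53 consensus decamer in Cdkn1a, the GC box GGGCGG in Cdkn1b and the cyclic AMP response element TGACGTCA in Cdkn2b.
Cdkn1a, chr17:29090729-29090975: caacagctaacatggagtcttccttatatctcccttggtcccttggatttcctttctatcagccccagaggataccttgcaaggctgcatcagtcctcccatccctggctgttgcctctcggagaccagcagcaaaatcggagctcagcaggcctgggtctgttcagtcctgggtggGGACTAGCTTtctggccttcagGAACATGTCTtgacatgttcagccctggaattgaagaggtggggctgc
Cdkn1b, chr6:134920151-134920400: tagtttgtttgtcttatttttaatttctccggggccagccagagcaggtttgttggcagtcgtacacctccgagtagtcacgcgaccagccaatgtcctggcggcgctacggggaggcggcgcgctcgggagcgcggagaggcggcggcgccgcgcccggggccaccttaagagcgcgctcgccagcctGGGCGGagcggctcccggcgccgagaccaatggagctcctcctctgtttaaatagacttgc
Cdkn2b, chr4:89311040-89311282: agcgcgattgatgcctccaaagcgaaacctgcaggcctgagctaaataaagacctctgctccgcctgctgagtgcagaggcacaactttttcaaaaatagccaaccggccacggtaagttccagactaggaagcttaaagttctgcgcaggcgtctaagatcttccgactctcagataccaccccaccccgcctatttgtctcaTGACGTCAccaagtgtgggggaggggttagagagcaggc

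RefSeq windows of 250 bases before a start were at hand for 7 of the genes, 11 windows in all; Ccnd1, Ccnd2 and Rb1 had none. On both strands, the GC box had a match in 7 of the 11 windows, against 32.7% of 32851 mouse windows of the same length. The p53 decamer matched in 2, 1 each for Cdkn1a and Cdkn2d (7.13% of all windows). Cdkn1a had 2 windows, for different starts. The upstream window, printed above, held 2 decamer matches, which begin 73 and 51 bases before its start. The downstream window, chr17:29093519-29093768, held 2 GC boxes and no p53 decamer, and is not printed. TGACGTCA matched only in the Cdkn2b window, 46 bases before the start, against 1.55% of all windows. The E2F spellings TTTCGCGC and TTTGGCGC matched in 0 of the 11 windows, against 0.256% and 0.417% of all. No match marked in the printed stretches overlapped another, and a match is a description of letters only.

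Among the D cyclins, Ccnd2 and Ccnd3 were lower in both adults than in both pups, while the Ccnd1 groups overlapped. Ccnd2 (ENSMUSG00000000184, chromosome 6, 127125162 to 127152193 in GRCm38), the cyclin D best known from proliferating progenitors and gonadal and neural tissue, stood at 47.1 and 143 CPM in adult replicates 1 and 2 and at 361 and 729 CPM in pup replicates 1 and 2. Both pups were above both adults, and within each age replicate 2 was the higher. The log2 fold change, adult against pup, came to -2.52 ± 0.84 (SE, n = 2 libraries per age; edgeR), which is 5.73-fold higher in pup. By edgeR's quasi-likelihood test with Benjamini-Hochberg adjustment over 16320 genes it did not pass (adjusted p = 0.284), and by DESeq2 it did (adjusted p = 0.00434). It was the only gene of the 9 that DESeq2 called, where DESeq2 called 5.2% of all genes lower and 3.66% higher in adult. Of the Ccnd2 counts of pup replicate 1, 3.95% were expected from background. The summed mesenchyme markers put the 4 libraries in the same order as Ccnd2. They rose from adult replicate 1 (1256 CPM) over adult replicate 2 (22439 CPM) and pup replicate 1 (26104 CPM) to pup replicate 2 (59715 CPM). This order was not particular to mesenchyme, as the 3 Schwann cell markers summed to 26.3, 55.9, 77.9 and 179 CPM in these libraries. Within the mesenchyme list, Pdgfrb and Col1a2 stood higher in adult replicate 2 (190 and 5109 CPM) than in pup replicate 1 (140 and 5021 CPM). The other mesenchyme markers kept the order. The part of either marker list in the Ccnd2 difference was not tested.

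Ccnd3 (ENSMUSG00000034165, chromosome 17, 47505051 to 47599691), the cyclin D that is widespread in differentiated as well as in dividing cells, stood at 131 and 146 CPM in adult libraries and at 165 and 375 CPM in pup libraries. The adults differed little from each other and lay just below pup replicate 1, so that the difference came mainly from pup replicate 2. Its log2 fold change was -0.96 ± 0.63 (edgeR adjusted p = 0.570), and -0.25 without pup replicate 2.

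Ccnd1 (ENSMUSG00000070348, chromosome 7, 144929931 to 144939925), the mitogen-responsive cyclin D, stood at 10.4 and 51.6 CPM in adult libraries and at 9.52 and 33.3 CPM in pup libraries. In each age replicate 2 was far above replicate 1, and the ranges of the ages overlapped. The log2 fold change of 0.53 ± 0.96 had an edgeR adjusted p of 0.866 and turned to -1.04 without adult replicate 2 and to -0.11 without pup replicate 1. Background was expected to give 65.9 of the 88 counts in pup replicate 1. Of its exon length 23.4% is shared with a neighbouring protein-coding gene on the other strand, and without strand such reads cannot be told apart.

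**Figure D1:**
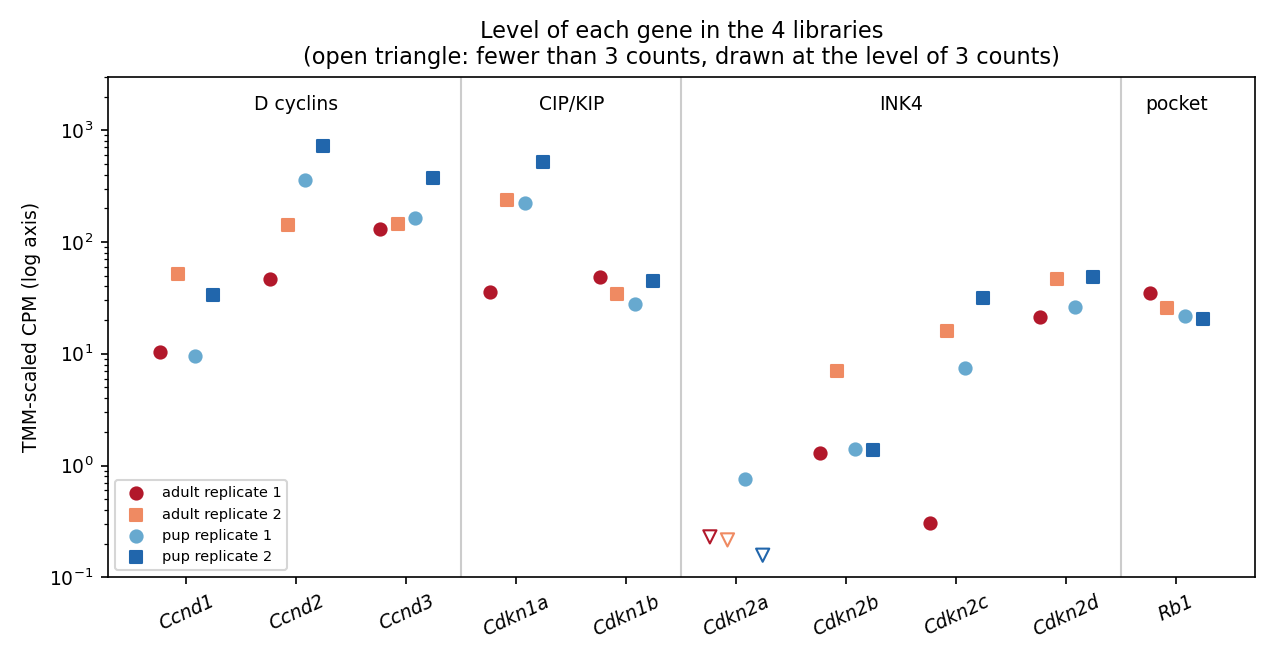
Level of each of the 10 genes in TMM-scaled CPM on a log axis, by library (circles: replicate 1, squares: replicate 2, red and orange: adult, blue: pup). Open triangles stand at the level of 3 counts for libraries with fewer. Both pups lie above both adults for Ccnd2 (361 and 729 CPM against 47.1 and 143 CPM), and Cdkn2a is at or near the level of 3 counts throughout.

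The makeup of the D cyclin RNA differed between the ages within each library, a comparison that needs no scaling between libraries. Per kb of exon, Ccnd2 made up 22.6% and 35.5% of the summed D cyclin level in adults, set against 64.8% and 60.9% in the pups, a mean of 29.0% ± 9.15 (SD, n = 2) against 62.8% ± 2.77. Ccnd3 made up 67.4% and 38.9% in adults, set against 31.8% and 33.6% in the pups. For Ccnd1 the shares were 9.99% and 25.6% in the adults against 3.42% and 5.56% in the pups. Ccnd2 was thus the leading D cyclin in both pups and Ccnd3 in both adults, narrowly so in adult replicate 2. The ages did not overlap for any of the 3 shares, and an exact two-sided permutation test gave p = 0.333 for each, the smallest that 2 against 2 libraries allow. Per kb, the ratio of Ccnd2 to Ccnd1 was 2.26 and 1.39 in adults, set against 18.9 and 11.0 in the pups. With background subtracted from pup replicate 1, its ratio was 72.8 in place of 18.9, and its Ccnd1 share 0.926% in place of 3.42%.

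These shares rest on the gene lengths used. All annotated exons of Ccnd3 come to 8775 bases over 21 annotated transcripts, while its longest protein-coding transcript has 2113. With the longest protein-coding transcript of each gene in place of all exons, Ccnd3 led in all 4 libraries, with 85.9% and 65.5% in adults, set against 56.8% and 58.9% in the pups, and Ccnd2 had 10.3% and 21.4% against 41.4% and 38.2%. The order of the ages was the same by both lengths for each of the 3 genes, whereas the leading cyclin of the pups was not.

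**Figure D2:**
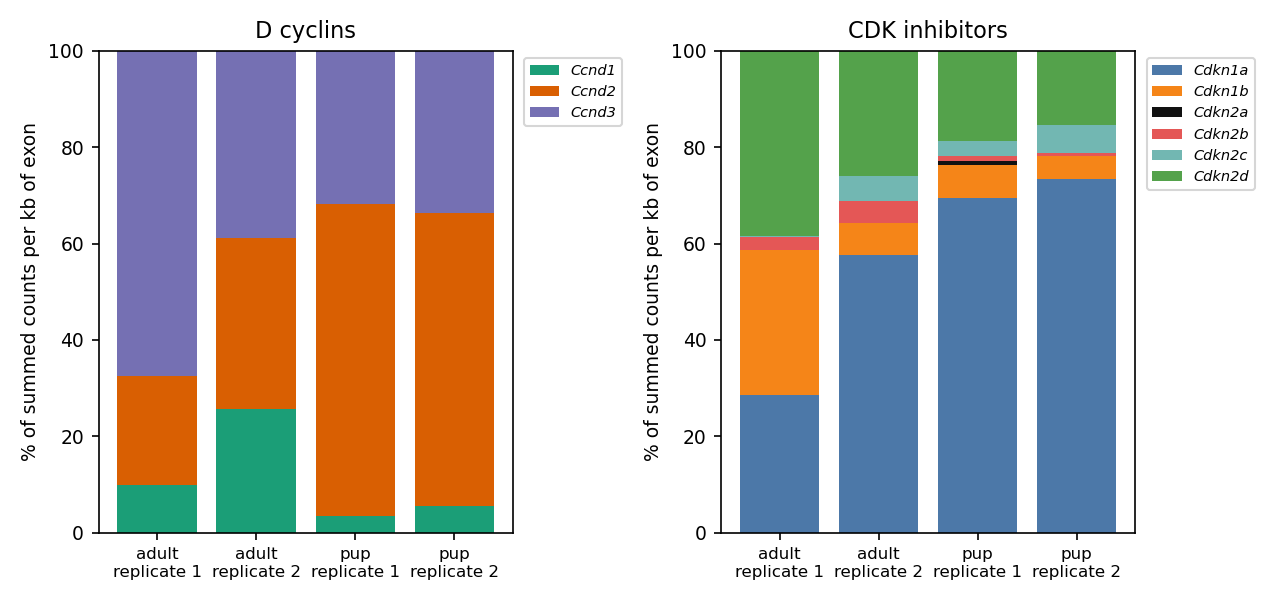
Left: share of each D cyclin in the summed D cyclin level of a library, in percent of counts per kb of exon. Right: the same for the 6 inhibitors. Bars are single libraries. Ccnd2 takes over 60% of the D cyclin level in the pups and at most 35.5% in the adults, and Cdkn1a takes 28.6% and 57.7% of the inhibitor level in the adults, beside 69.5% and 73.3% in the pups.

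No CDK inhibitor was higher in both adults than in both pups. Cdkn1a (ENSMUSG00000023067, chromosome 17, 29090976 to 29100727) encodes p21, the inhibitor induced by p53 and by many stresses. It stood at 36.0 and 235 CPM in adult libraries and at 221 and 524 CPM in pup libraries. Adult replicate 1 was far below the rest, and adult replicate 2 lay between the pups, 6.54-fold above its fellow adult. The log2 fold change was -1.46 ± 0.99 (edgeR adjusted p = 0.590), -0.69 without adult replicate 1 and -3.37 without adult replicate 2.

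Cdkn1b (ENSMUSG00000003031, chromosome 6, 134920401 to 134925513) encodes p27, the inhibitor that accumulates in resting cells, largely through slower breakdown of the protein. Its levels were 48.4 and 34.1 CPM in adult libraries against 27.8 and 44.9 CPM in pup libraries. The ages interleaved, and the highest library was 1.42-fold above the other adult. The log2 fold change was 0.18 ± 0.52 (edgeR adjusted p = 0.920) and changed sign with library totals as the scaling (-0.09), without adult replicate 1 (-0.13) and without pup replicate 1 (-0.13). Background was expected to give 63.7 of the 257 counts in pup replicate 1.

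Among the INK4 genes, Cdkn2d was well detected, Cdkn2c varied widely, Cdkn2b was low and Cdkn2a was not detectable at this depth. Cdkn2d (ENSMUSG00000096472, chromosome 9, 21288410 to 21291407), which encodes p19-INK4d, stood at 21.4 and 47.1 CPM in adult libraries and at 26.4 and 48.8 CPM in pup libraries. Replicate 2 was the higher in each age and the ages overlapped. Its log2 fold change was -0.14 ± 0.62 (edgeR adjusted p = 0.952), 0.29 without adult replicate 1 and 0.37 without pup replicate 2.

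Cdkn2c (ENSMUSG00000028551, chromosome 4, 109660876 to 109667189), which encodes p18, had 4 counts in adult replicate 1 and 221 in adult replicate 2, or 0.307 and 15.9 CPM. The pups stood at 7.47 and 31.7 CPM, with 37.6 of the 69 counts of pup replicate 1 expected from background. The adults thus lay on both sides of pup replicate 1. The log2 fold change of -1.27 ± 1.65 (edgeR adjusted p = 0.806) became -5.96 without adult replicate 2 and 0.12 without pup replicate 2.

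Cdkn2b (ENSMUSG00000073802, chromosome 4, 89306299 to 89311039), which encodes p15, the INK4 inhibitor induced by TGF-beta, had 17 and 98 counts in adult and 13 and 26 in pup libraries, or 1.30, 7.06, 1.41 and 1.37 CPM. Adult replicate 2 alone was higher, and 19.4 counts were expected from background in pup replicate 1, more than its 13. The log2 fold change was 1.59 ± 1.80 (edgeR adjusted p = 0.771) and -0.09 without adult replicate 2.

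Cdkn2a (ENSMUSG00000044303, chromosome 4, 89274471 to 89294653), on the same chromosome as Cdkn2b, encodes both p16-INK4a and, from another first exon and reading frame, p19-ARF, and a count per gene cannot separate them. It had 0 and 2 counts in adult and 7 and 0 in pup libraries, with 16.4 expected from background in pup replicate 1. A count of 0 allows up to 3 counts, or 0.230 CPM in adult replicate 1 and 0.158 CPM in pup replicate 2. No fold change is given.

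The inhibitor RNA was also made up differently in the libraries. Per kb of exon, Cdkn1a took 28.6% and 57.7% of the summed level of the 6 inhibitors in adults, set against 69.5% and 73.3% in the pups, without overlap (exact two-sided permutation p = 0.333, the smallest possible). Cdkn2d took 38.4% and 26.1% against 18.7% and 15.4%. For Cdkn1b the shares were 30.05% and 6.53% in adults, set against 6.83% and 4.91% in the pups, so that adult replicate 1 stood far above the rest and the ages overlapped. With raw counts the Cdkn1b shares were 45.1% and 10.04% against 9.76% and 6.91%, without overlap, and the ages were also apart with background subtracted and with the longest protein-coding transcripts.

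Set against the D cyclins, the 6 summed inhibitors came to 1.60 and 2.68 times the summed D cyclin level in the adults. In the pups they came to 1.51 and 1.58 times (exact two-sided permutation p = 0.333, the smallest possible). The adult ratios were the higher, adult replicate 1 by little. This sum leaves out Cdkn1c, also a CIP/KIP gene, so it does not cover the whole family. Per kb of exon, Cdkn1c stood at 19.3 and 13.9 CPM in adults, set against 54.1 and 129 CPM in the pups. With raw counts the ratios were 0.570 and 0.997 against 0.532 and 0.572, and with the longest protein-coding transcripts 0.609 and 1.57 against 0.986 and 1.03, and by both the ages overlapped. For Cdkn1b alone the ratio was 0.480 and 0.175 in adults, set against 0.103 and 0.0775 in the pups, and the ages stayed apart with raw counts and with the longest protein-coding transcripts too. The CPM of Cdkn1b itself interleaved between the ages. For Cdkn1a alone the ratio was 0.458 and 1.55 in adults, set against 1.05 and 1.16 in the pups, and the ages overlapped.

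Rb1 (ENSMUSG00000022105, chromosome 14, 73183673 to 73325822), the pocket protein that D cyclin kinases act on, ranged from 20.3 to 34.6 CPM. It stood at 34.6 and 25.6 CPM in adult libraries and at 21.8 and 20.3 CPM in pup libraries. Both adults were above both pups by a small margin, with a log2 fold change of 0.52 ± 0.56 (edgeR adjusted p = 0.761). Background was expected to give 84.1 of the 201 counts in pup replicate 1, and 14.9% of the exon length is shared with other genes.

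Over the 9 tested genes, edgeR called 0 higher and 0 lower in adult, as it did over all 16320 genes (0% in each direction). At an unadjusted p under 0.05, 1 of the 9 was lower (Ccnd2) and 0 were higher, where 8.49% and 5.99% of all genes were, and limma-voom called 0 of the 9 as well as 0% of all genes in each direction. Both adults lay below both pups for 2 of the 9, Ccnd2 and Ccnd3, against 27.1% of all genes, and above them for 1, Rb1, against 21.8%. The median log2 fold change of the 9 was -0.14, beside -0.24 over all genes tested. Without adult replicate 2 the median of the 9 was -1.04, and without pup replicate 2 it was 0.37. By sign, 4 of the 9 were positive and 5 negative, where 42.9% and 57.1% of all genes were. With only genes that had 10 counts in every library of an age, edgeR called 0 of the 9 and 0.0856% of all genes higher and 0.0132% lower. Without a library, an age has 1 library left, which is assumed to vary like those of the other age. edgeR then called 0 of the 9 without adult replicate 1, when it called 1.4% of all genes higher and 0.987% lower, and without adult replicate 2, when it called 1.51% higher and 4.49% lower.

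Compared per kb of exon, Cdkn1a was the most abundant of the 10 in 3 libraries, with 66.3 CPM per kb in adult replicate 2 and 62.2 and 147 CPM per kb in the pups. In adult replicate 1 the order was led by Ccnd3 at 14.9, Cdkn2d at 13.6, Cdkn1b at 10.6 and Cdkn1a at 10.1 CPM per kb. Cdkn2a was last in all 4 libraries and Cdkn2b was eighth or ninth. In the pups Ccnd2 came after Cdkn1a (38.3 and 77.5 CPM per kb), followed by Ccnd3 (18.8 and 42.8 CPM per kb).

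Within the adults, 6 of the 9 tested genes were at least 2.20-fold higher in replicate 2 than in replicate 1: Ccnd1 (4.95-fold), Ccnd2 (3.04-fold), Cdkn1a (6.54-fold), Cdkn2b (5.42-fold), Cdkn2c (51.9-fold) and Cdkn2d (2.20-fold). Ccnd3 was 1.11-fold higher there, while Cdkn1b and Rb1 were 1.42-fold and 1.35-fold higher in replicate 1. The mesenchyme and endothelial markers, at 22439 and 749 CPM in replicate 2 against 1256 and 0.0766 CPM in replicate 1, and the 4 acinar markers, at 38237 against 501 CPM with Aqp5 at 0 counts in replicate 1, of which Mucl2 alone gave 37832 and 392 CPM, moved with the first group. Their part in these differences was not tested. The 8 leukocyte markers summed to 43.5 and 28.2 CPM in adult libraries against 110 and 9.82 CPM in pup libraries, with 512 of the 1017 counts of pup replicate 1 expected from background.

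**Figure D3:**
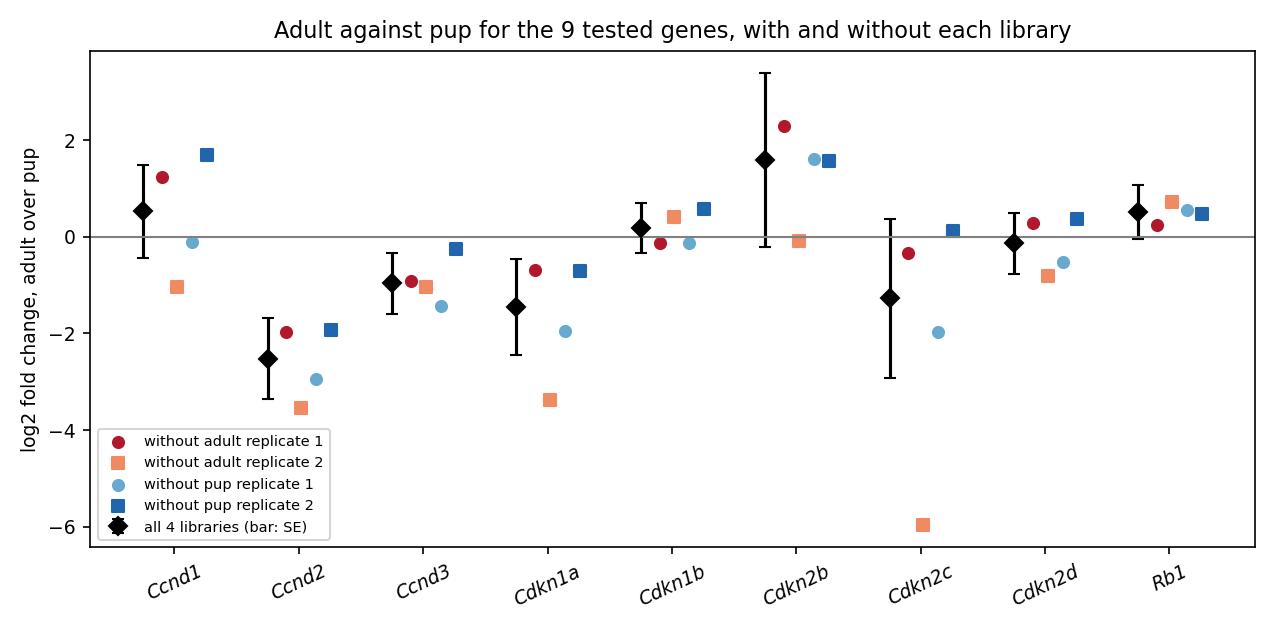
Log2 fold change of adult over pup for the 9 tested genes. Black diamonds with bars give the edgeR value ± SE on all 4 libraries, and coloured points the value with a library left out. Ccnd2 stays below 0 throughout (-3.53 to -1.92), whereas Ccnd1, Cdkn1b, Cdkn2b, Cdkn2c and Cdkn2d fall on both sides of 0.

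The genes around this switch were read from 10 further lists, and by edgeR 0 members of any list were called over all genes. Partners of the D cyclins and the later cyclins had negative log2 fold changes in 14 of 14 tested members (57.1% of all genes), with a median of -2.77. In 11 of the 14 both adults lay below both pups (27.1% of all genes), and DESeq2 called 5 lower (5.2% of all genes): Cdk1, Ccna2, Ccnb1, Cdc25b and Cdc25c, named after their values were seen. Without background, however, pup replicate 1 stood below adult replicate 2 for Ccnh (32.1 against 36.6 CPM). For Ccnb1, background was expected to give 59.0 of the 59 counts of pup replicate 1. Without it that library stood at 0 CPM, as both adults did. Cdk4, the main kinase partner, stood at 101 and 107 CPM in adult libraries and at 84.6 and 320 CPM in pup libraries, so the ages overlapped. Cdk6, the other partner, stood at 13.9 and 19.0 against 83.3 and 39.4 CPM (log2 fold change -1.89 ± 0.59, edgeR adjusted p = 0.284), with 196 of the 770 counts of pup replicate 1 expected from background. Cdk2, the kinase of the next step, stood at 25.4 and 22.7 against 51.4 and 61.7 CPM. Ccne1, its cyclin partner, stood at 1.15 and 4.97 against 8.33 and 37.7 CPM. Background was expected to give 37.2 of its 77 counts in pup replicate 1, and without it that library stood at 4.33 CPM, below adult replicate 2. Ccne2 stood at 0 and 0.792 against 7.25 and 7.51 CPM, with 48.9 of 67 counts in pup replicate 1 expected from background. Cdk7, a subunit of the kinase that activates CDKs, stood at 32.4 and 39.8 against 36.8 and 54.3 CPM.

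The relatives of the 10 genes differed among themselves. Cdkn1c, the imprinted CIP/KIP gene that encodes p57, stood at 39.3 and 28.4 CPM in adult libraries and at 110 and 263 CPM in pup libraries, with both pups far above both adults. Its log2 fold change was -2.46 ± 0.62 (edgeR adjusted p = 0.244, DESeq2 adjusted p = 0.00201), a size close to that of Ccnd2. Of the pocket protein genes, Rbl2, which encodes the p130 of resting cells, stood at 54.3 and 69.0 against 49.8 and 41.7 CPM, and Rbl1, which encodes p107, at 17.5 and 14.4 against 21.3 and 20.6 CPM, with 83.8 of its 197 counts in pup replicate 1 expected from background.

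E2F and DP factor genes were negative in 8 of 10 (57.1% of all genes), with a median of -1.77, and DESeq2 called 1 lower (5.2% of all genes), E2f2, named after its value was seen. E2f1, an activator of replication genes, stood at 0 and 3.74 CPM in adult libraries and at 9.74 and 15.2 CPM in pup libraries, with 44.1 of 90 counts in pup replicate 1 expected from background. The dimerization partners Tfdp2 and Tfdp1 stood at 71.5 and 49.9 against 104 and 53.5 CPM and at 34.5 and 38.0 against 35.7 and 95.4 CPM. Of the E2F target genes, 18 of 18 were negative (57.1% of all genes), with a median of -1.55. In 15 of them both adults lay below both pups (27.1% of all genes). Without background, pup replicate 1 stood below adult replicate 2 for Mcm6 (29.5 against 35.0 CPM) and Cdt1 (9.42 against 10.6 CPM). For Mcm7 it stood below adult replicate 1 (27.8 against 29.0 CPM). DESeq2 called 6 of the E2F target genes lower (5.2% of all genes). The most abundant, Rrm1, a subunit of ribonucleotide reductase, had a log2 fold change of -0.73 ± 0.55, with 154 of 421 counts in pup replicate 1 expected from background, and Pcna, the sliding clamp of replication, -0.77 ± 0.52. Among the 5 genes of the MuvB core, which joins the pocket proteins p107 and p130 in resting cells, 3 were positive and 2 negative with a median of 0.13. Rbbp4 had a log2 fold change of 0.13 ± 0.59 and Lin52 of 0.35 ± 0.69, with 43.5 of 157 Lin52 counts in pup replicate 1 expected from background.

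Proliferation markers were negative in 9 of 9 (57.1% of all genes), with both adults below both pups in each (27.1% of all genes). Without background, however, pup replicate 1 stood below adult replicate 1 for Aurka (2.92 against 4.67 CPM) and Plk1 (0.758 against 1.76 CPM). The median log2 fold change of the 9 markers was -8.68, or -5.51 with the 3 genes that had 0 counts in both adults at their bound against 3 counts over the adults. DESeq2 called 7 lower (5.2% of all genes). Mki67, which marks cycling cells, had 1 and 0 counts in adult and 286 and 991 in pup libraries, with 141 of the 286 expected from background. Top2a, a topoisomerase of dividing cells, had a log2 fold change of -3.94 ± 0.70 (edgeR adjusted p = 0.169).

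**Figure D4:**
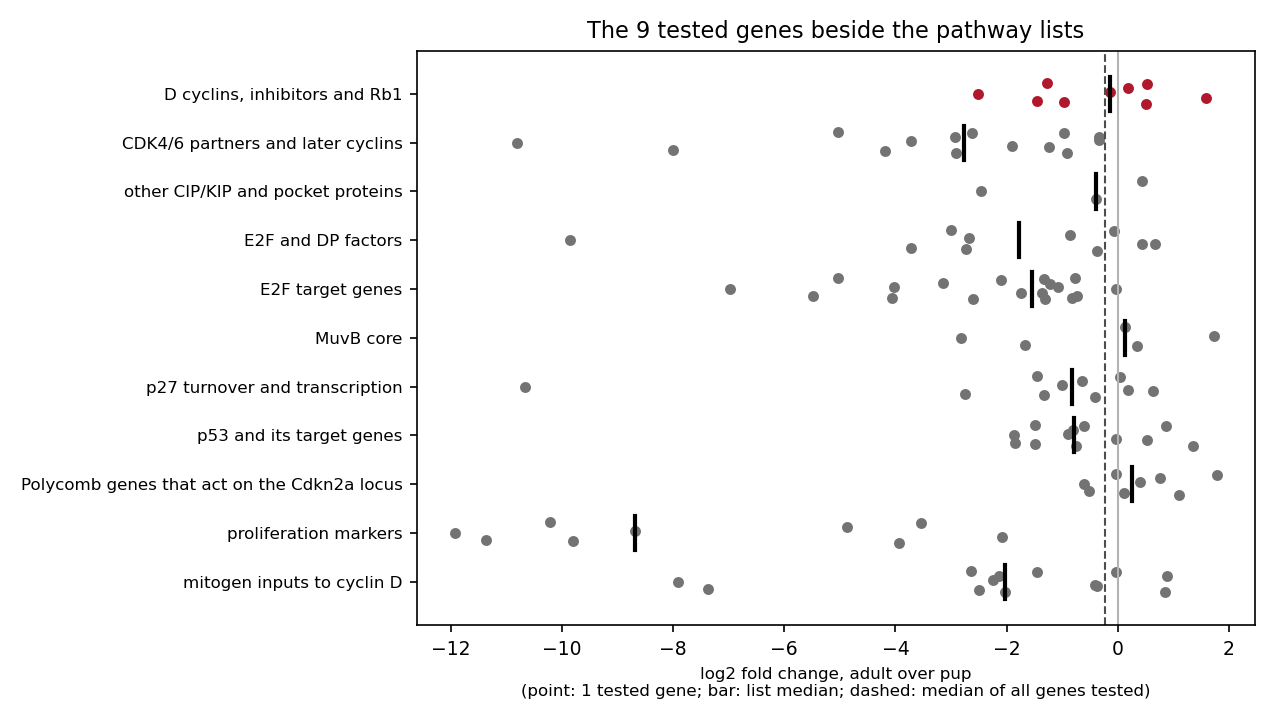
Log2 fold change of adult over pup by edgeR for the 9 tested genes (red) and for the members of the 10 pathway lists (grey), 1 point per gene, with the list median as a bar and the median of all genes tested (-0.24) as a dashed line. The proliferation markers lie farthest left, at a median of -8.68, while the 9 genes lie around the dashed line. Values of genes with 0 counts in both adults depend on edgeR's prior count.

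The regulators of the inhibitors gave mixed values. Of 10 genes of p27 turnover and transcription, 3 were positive and 7 negative (42.9% and 57.1% of all genes), with a median of -0.82, and DESeq2 called 2 lower, Skp2 and Cks1b (5.2% of all genes). Skp2, the ubiquitin ligase subunit that marks p27 for breakdown, had 0 counts in both adults and 189 and 170 in the pups, with 110 of the 189 expected from background. It was at least 40.1-fold lower in adult, against a floor of 3 counts over the adults and with every count of pup replicate 1 taken as background. Cks1b, the cofactor of that ligase, stood at 5.90 and 19.9 against 42.4 and 130 CPM (log2 fold change -2.74 ± 0.84, edgeR adjusted p = 0.284, DESeq2 adjusted p = 0.0249). Foxo3, a transcription factor that can activate Cdkn1b, stood at 31.0 and 42.5 against 55.3 and 42.0 CPM. The most abundant members, Skp1 (annotated as Skp1a) and Akt1, had log2 fold changes of 0.64 ± 0.85 and 0.05 ± 0.66.

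Of the 12 genes of the p53 list, 9 were negative and 3 positive (57.1% and 42.9% of all genes) with a median of -0.78, and DESeq2 called 1 lower (5.2% of all genes), Sesn2, named after its value was seen. Trp53 stood at 36.4 and 67.7 CPM in adult libraries and at 93.6 and 199 CPM in pup libraries, and Mdm2, which marks p53 for breakdown and is itself its target, at 44.3 and 57.7 against 81.2 and 97.6 CPM. In both genes the adults lay below the pups. Ccng1, another p53 target, stood at 124 and 75.6 against 32.2 and 76.9 CPM, with 49.1 of 298 counts in pup replicate 1 expected from background. The most abundant targets went apart in sign: Btg2, also an immediate early gene, had a log2 fold change of 1.35 ± 1.005, and Phlda3 of -1.48 ± 0.58, and neither passed by edgeR or DESeq2.

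Polycomb genes, whose products keep the Cdkn2a locus silent in many tissues, were positive in 5 of 8 (42.9% of all genes) with a median of 0.26. Bmi1, a core subunit known for repressing this locus, stood at 55.7 and 42.2 CPM in adult libraries and at 14.2 and 14.3 CPM in pup libraries, with 55.6 of the 131 counts in pup replicate 1 expected from background. The adults were both above the pups (log2 fold change 1.78 ± 0.52, edgeR adjusted p = 0.274, DESeq2 adjusted p = 0.0705). Ezh2, the methyltransferase, stood at 27.4 and 15.7 against 16.0 and 16.7 CPM, with 93.4 of 148 counts in pup replicate 1 expected from background, and that library at 5.95 CPM without it. Rnf2 had a log2 fold change of -0.52 ± 0.55, and Cbx7 of 1.11 ± 0.60, with 90.7 of 283 Cbx7 counts in pup replicate 1 expected from background.

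The genes listed for mitogen signalling around cyclin D were negative in 11 of 13 (57.1% of all genes), with a median of -2.03. DESeq2 called 7 lower (5.2% of all genes). These were Myc and, named after their values were seen, Mycn, Fosl1, Etv5, Dusp6, Spry1 and Spry2. Myc, a growth regulator that can activate Ccnd2, stood at 63.8 and 137 CPM in adult libraries and at 266 and 553 CPM in pup libraries, and like Ccnd2 was lower in both adults than in both pups (log2 fold change -2.03 ± 0.73, edgeR adjusted p = 0.284, DESeq2 adjusted p = 0.0132). The most abundant, Fos and Egr1, immediate early genes, had log2 fold changes of 0.85 ± 1.86 and -0.42 ± 1.40.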

How the data were processed

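The authors deposited raw read counts per Ensembl gene for each library. Tools listed in the submitters' processing notes, without their roles, are cutadapt 1.18, STAR 2.5.2a, HTSeq 0.11.0, R 3.5.1, DESeq2 1.20.0; GRCm38 is the build they name. Options, strand setting and annotation release were not given in the sources used here. Per the labels' protocols, libraries were made with SMART-Seq HT, which does not mark strand and amplifies cDNA by PCR. Floors therefore cover counting error only. HTSeq's tallies of reads not assigned to a gene, 31.5% to 32.9% of all reads and 84.4% in pup replicate 1, were left out. There were 8 value columns in tables of the whole series that match no single sample and were not used. Symbols, positions and exon lengths came from GENCODE vM21, which held 53360 of the 53465 gene IDs.

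Counts were tested in R 4.3.3 with the quasi-likelihood test of edgeR 4.0.16 (TMM factors, filterByExpr with a minimum count of 10 and minimum total of 15, age as the only term). The threshold was a Benjamini-Hochberg adjusted p of 0.05 over all genes. A positive log2 fold change is higher in adult. The SE is the fold change divided by the square root of the F statistic. DESeq2 1.42.0 and limma 3.58.1 (voom) were alternatives. Scripts were tested on simulated data. Background in pup replicate 1 is 14.0 counts per kb of exon, from olfactory receptor genes, with 0.5 of that rate on X and Y. It is an average and need not hold gene by gene. The members, lists and tests were chosen with earlier results of these data known. Named from the lists were genes given by name and, in each, the 2 tested genes of highest mean CPM.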

Additional observations from a re-analysis of the deposited data

How the results depend on the processing

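With only 2 libraries per age, and 1 of the pups with a high background, depth and spread limit what could be called. Over all genes edgeR's calls moved from 0 higher and 0 lower to 284 and 231 with no filter beyond 1 count, to 13 and 2 with 10 counts in every library of an age, and DESeq2 gave 597 and 848. Leaving out a library, where the lone library of an age is assumed to vary like those of the other age, gave 0 to 247 higher and 0 to 733 lower, namely 229 and 161 without adult replicate 1 but 247 and 733 without adult replicate 2. Of the 9 genes tested here, only DESeq2 called any, 1 lower (Ccnd2), and edgeR's adjusted p for Ccnd2 lay between 0.149 and 0.878 over its alternatives. The replicate numbers only name samples, and whether they pair libraries is not known. Across genes, the replicate differences of the ages had a correlation of -0.03. It cannot decide this, as the pup difference also holds the background of pup replicate 1. The replicate block gave 0 calls in each direction, over all genes and over these, and changed no call of the edgeR fit. Library totals moved the median of all genes from -0.24 to -0.62, and DESeq2 size factors to -0.31. The median of the 9 ranged from -1.04 without adult replicate 2 to 0.37 without pup replicate 2. Of 108 member values under alternatives, 98 kept sign and side of the threshold, 1 newly passed and 9 changed sign: Cdkn1b with library totals (-0.092), without adult replicate 1 (-0.13) and without pup replicate 1 (-0.13), Cdkn2d without adult replicate 1 (0.29) and without pup replicate 2 (0.37), Ccnd1 without adult replicate 2 (-1.04) and without pup replicate 1 (-0.11), Cdkn2b without adult replicate 2 (-0.089) and Cdkn2c without pup replicate 2 (0.12). Over the libraries left out in turn, the ranges were -1.04 to 1.70 for Ccnd1, -0.13 to 0.57 for Cdkn1b, -0.089 to 2.29 for Cdkn2b, -5.96 to 0.12 for Cdkn2c and -0.82 to 0.37 for Cdkn2d. The cause was not tested.

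Leaving out each library was added for the shares and the ratio after seeing the data, as was the longest protein-coding transcript. The adult minus pup difference in share, in percentage points, was 13.3 for Ccnd1, -33.8 for Ccnd2 and 20.5 for Ccnd3. It ranged from 5.50 to 21.1, from -40.2 to -27.3 and from 6.18 to 34.7 when a library was left out, and was 6.07 for Ccnd1 and -23.9 for Ccnd2 with the longest protein-coding transcripts. The difference in the ratio of inhibitors to D cyclins was 0.594, ranged from 0.0521 without adult replicate 2 to 1.14 without adult replicate 1, and was 0.0819 with the longest protein-coding transcripts.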
